A study of Papio with 24 samples.

Results

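The genes described here are 10 genes of smooth muscle and the contractile apparatus, CNN1, ACTG2, ACTA2, TAGLN, TPM1, MYH11, MYL9, DES, PDLIM3 and SLN, measured in adipose-derived stem cells that were cultured from baboon fetuses. They were taken as a list of symbols that was chosen with earlier results of these data known. Every probe that the platform annotation of the array assigns to them was used. This gave 18 of the 48803 probes on the array. A probe entered the tests when its detection p, the chance that its signal came from background, was under 0.05 on at least 4 of 24 arrays, which 15 of the 18 contractile probes and 16933 probes in all passed. The other 3 probes, 1 each for TAGLN, MYH11 and PDLIM3, were detected on 0 of 24 arrays. Each of the 10 genes kept a tested probe, out of 10228 named genes tested, and a gene with several tested probes was counted by the one with the highest mean.

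Smooth muscle contracts when myosin heads pull on actin filaments, and the switch is the phosphorylation of the myosin regulatory light chain by myosin light chain kinase. Most genes of this apparatus are driven by serum response factor (SRF) together with cofactors of the myocardin family, and TGF-beta raises them in many mesenchymal cells. Mesenchymal progenitors grown on plastic form actin stress fibres and commonly express several of these genes, so a high level does not by itself mark a muscle cell.

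Cells came from 3 fat depots of 8 fetuses, all taken on day 165 of a gestation that lasts 184 days, so each array held the cells of 1 fetus and 1 depot. The depots were omental fat within the abdominal cavity, subcutaneous fat of the abdomen and subcutaneous fat of the femoral region. The 4 control fetuses (control_8009, control_8011, control_9017 and control_9087) had mothers fed ad libitum, and the 4 restricted fetuses (restricted_2820, restricted_9073, restricted_9075 and restricted_9085) had mothers on a 30% nutrient restriction for the whole pregnancy. The fetuses control_9017 and restricted_9085 were male and the other 6 female, so each diet held 1 male and 3 females. All cells had been released by collagenase, expanded in serum, frozen, thawed and grown to confluence, and RNA of triplicate wells was combined before labelling. The values thus describe confluent cultures, and in such bulk RNA fewer expressing cells and less RNA per cell cannot be told apart. Levels below are normalised log2 intensities, and values by fetus follow the order of the names above.

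Arrays detected between 13102 and 14994 probes. Of 12 progenitor markers, 10 were detected, among them PDGFRA and DCN on 24 of 24 arrays, while DPP4 and THY1 were detected on 0. The probes are human, and widely expressed genes such as ACTN4, TPM4, YAP1 and TGFB1 were also detected on 0 arrays, so a gene given here as not detected need not be absent. The abdominal array of restricted_9073 stood apart: its root mean square distance over the tested probes was 0.263 to the omental mean and 0.329 to the abdominal mean, and no other abdominal array lay nearest to the omental mean. Contractile genes called against abdominal cells, by their brightest probe, are given with and without that array, as are list counts that it changed. Single genes of the other lists are given only with it. The abdominal array of control_8009 carried transcripts of skeletal muscle, with 15 of 21 such markers detected against 4 to 8 on the other abdominal arrays. On it the embryonic myosin gene MYH3 read 10.1 and the next highest array 6.22, while its DES (9.44), SLN (5.58) and PDLIM3 (7.03) lay within the range of the other abdominal arrays.

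Contractile genes were higher in omental cells than in the subcutaneous cells of the same fetus, and the size of the difference ran from no call in ACTA2 to 36.9-fold in SLN. Against abdominal cells, 6 of 10 genes were called higher and 0 lower (limma with the fetus as a block, adjusted p under 0.05). Over all genes tested, 6.25% were higher in omental cells in that comparison. Against femoral cells, 7 of 10 were higher and 0 lower, where 9.1% of all genes were higher. The median difference of the 10 genes was 0.91 against abdominal and 0.79 against femoral cells on the log2 scale, and the median of all genes was 0.00 in both. SLN and PDLIM3 ranked 2 and 3 of 10228 genes by the size of the omental excess in each of these comparisons. The omental arrays serve both comparisons, so these are not independent of each other. The 10 genes were chosen with earlier results of these data known, so the contrast with all genes is only descriptive. Without fetus control_8009, 4 of 10 genes were higher than in abdominal cells, a count also reached without control_8011, control_9017 or restricted_9085, and 7 of 10 were higher than in femoral cells.

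**Figure D1:**
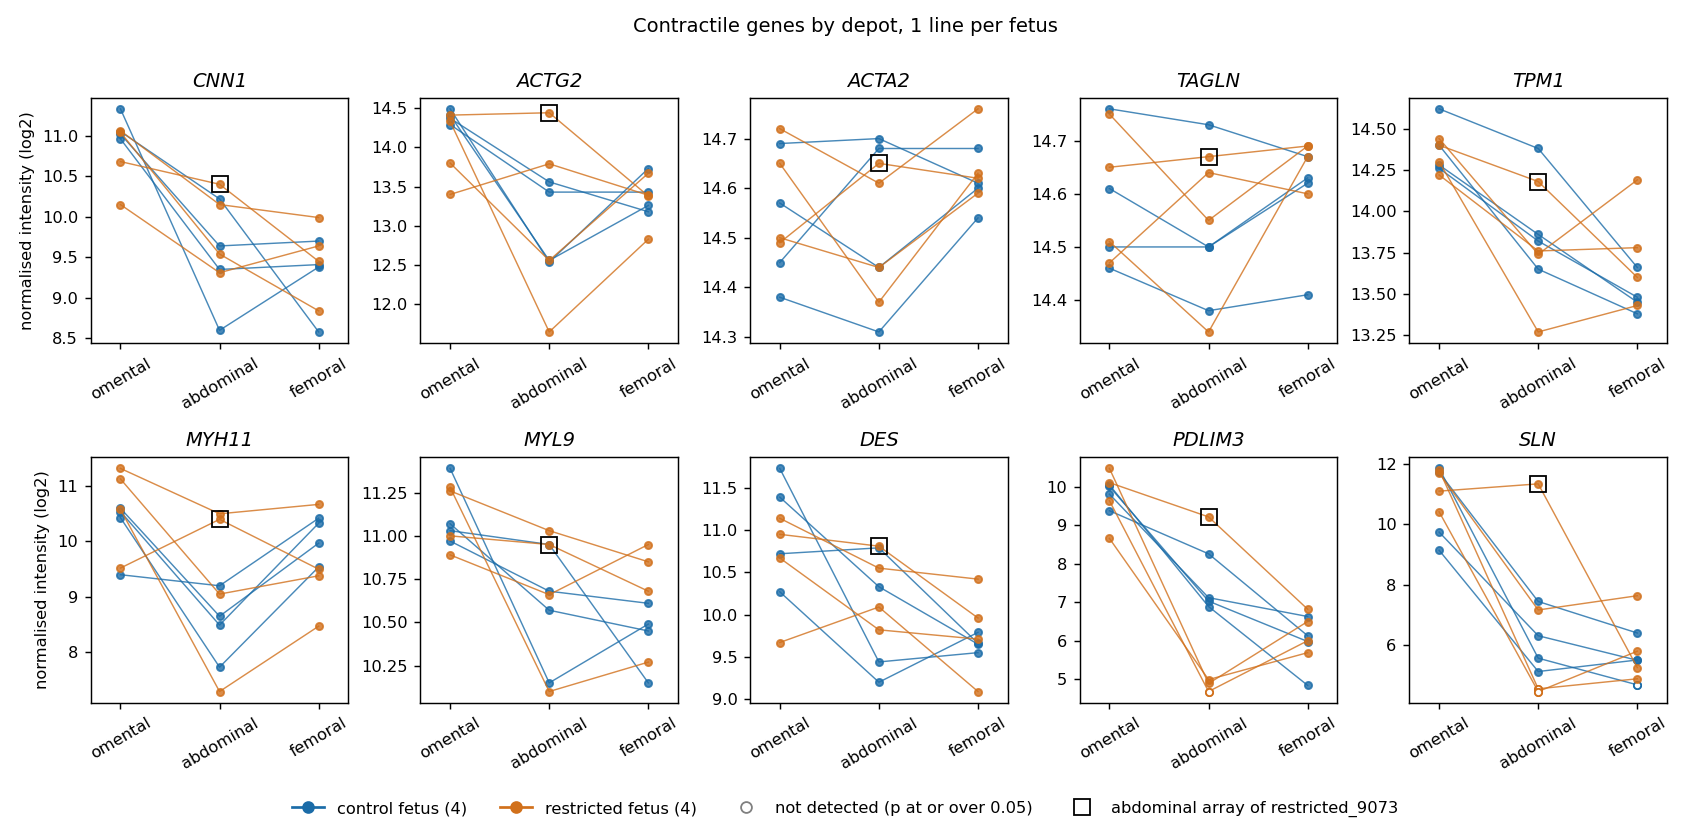
Normalised log2 intensity (y axis) of the 10 contractile genes, each by its brightest tested probe, in omental, abdominal and femoral cells (x axis), with 1 line per fetus (blue control, orange restricted). Open circles are arrays without detection and the square marks the abdominal array of restricted_9073. The y axes differ between panels and do not start at 0. PDLIM3 and SLN fall steeply from omental to subcutaneous cells, while ACTA2 and TAGLN stay between 14.3 and 14.8 in all depots.

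The steepest depot pattern belonged to SLN, which encodes sarcolipin, a small protein of the sarcoplasmic reticulum that inhibits the calcium pump in striated muscle. In omental cells SLN read 11.84, 11.71, 9.14 and 9.74 in the control fetuses and 11.69, 11.09, 11.79 and 10.41 in the restricted fetuses. In abdominal cells it read 5.58, 7.45, 5.14 and 6.32 in control and 7.17, 11.33, 4.57 and 4.48 in restricted fetuses. In femoral cells it read 4.70, 6.41, 5.52 and 5.51 in control and 7.64, 5.27, 4.90 and 5.81 in restricted fetuses. Every omental array lay above every femoral array, and of the abdominal arrays the one of restricted_9073, at 11.33, alone reached omental levels. SLN was detected on all 8 omental, 6 abdominal and 7 femoral arrays, so part of the subcutaneous values are at background. The omental excess was 4.42 ± 0.65 (SE, n = 8 fetuses) over abdominal cells, or 21.4-fold, with an adjusted p of 0.00248, and SLN was higher in 7 of 8 fetuses. Without the abdominal array of restricted_9073 this excess was 5.09 ± 0.41 (adjusted p = 0.000115). Over femoral cells it was 5.21 ± 0.36, or 36.9-fold, in 8 of 8 fetuses (adjusted p = 1.8e-06).

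PDLIM3 encodes a PDZ and LIM domain protein that binds alpha-actinin at the Z lines of muscle. Omental levels were 10.01, 10.05, 9.81 and 9.38 in the control and 8.66, 10.11, 10.48 and 9.64 in the restricted fetuses. Abdominal levels were 7.03, 6.89, 7.12 and 8.26 in the control and 4.99, 9.22, 4.89 and 4.68 in the restricted fetuses. Femoral levels were 5.98, 4.84, 6.63 and 6.13 in the control and 5.69, 6.82, 6.50 and 6.00 in the restricted fetuses. All omental arrays stood above all femoral arrays, and 7 of 8 omental arrays stood above all abdominal arrays. PDLIM3 was higher in omental than in abdominal cells by 3.13 ± 0.47 (8.78-fold, adjusted p = 0.00265) and in 8 of 8 fetuses. Without the abdominal array of restricted_9073 the excess was 3.45 ± 0.44 (adjusted p = 0.00117). The excess over femoral cells was 3.70 ± 0.20 (12.95-fold, adjusted p = 2.7e-07), also in 8 of 8. The abdominal values split between fetuses, with 3 restricted fetuses between 4.68 and 4.99, the fourth at 9.22, and all 4 control fetuses between 6.89 and 8.26. PDLIM3 was detected on 8 omental, 7 abdominal and 8 femoral arrays, so the lowest abdominal values are near background.

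CNN1 encodes calponin 1, an actin-binding protein of differentiated smooth muscle that slows the myosin ATPase. Omental cells read 11.33, 11.05, 10.96 and 11.02 in control and 10.15, 10.68, 11.06 and 11.04 in restricted fetuses. Abdominal cells read 8.60, 10.22, 9.35 and 9.64 in control and 9.31, 10.40, 10.15 and 9.54 in restricted fetuses. Femoral cells read 9.38, 8.58, 9.41 and 9.70 in control and 9.64, 9.45, 9.99 and 8.84 in restricted fetuses. The lowest omental array, that of restricted_2820, lay above every femoral array but below the highest abdominal array, that of restricted_9073. CNN1 was 1.26 ± 0.21 higher in omental than in abdominal cells (2.40-fold, adjusted p = 0.00499), and 1.40 ± 0.20 higher (adjusted p = 0.00237) without the abdominal array of restricted_9073. It was 1.54 ± 0.18 higher than in femoral cells (2.90-fold, adjusted p = 0.0001), and the sign was the same in 8 of 8 fetuses in each comparison.

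The actins parted. ACTG2, the enteric smooth muscle gamma-actin, ranged from 13.40 to 14.49 with a median of 14.35 in omental cells, from 11.65 to 14.44 with a median of 12.99 in abdominal cells and from 12.83 to 13.73 with a median of 13.39 in femoral cells. Of the 8 omental arrays, 7 lay above all femoral arrays, and the exception was restricted_9075 at 13.40. ACTG2 was higher in omental cells by 1.12 ± 0.30 against abdominal (adjusted p = 0.0371, 6 of 8 fetuses) and by 0.83 ± 0.15 against femoral cells (adjusted p = 0.00217, 8 of 8 fetuses). The call against abdominal cells ended without control_8009 (adjusted p = 0.0959), control_8011 (0.067), control_9017 (0.0943), control_9087 (0.0641), restricted_2820 (0.0646) or restricted_9085 (0.0756), and without the fetus as a replicate block (0.0566). Without only the abdominal array of restricted_9073 the difference was 1.29 ± 0.30 (adjusted p = 0.0237). ACTA2, the alpha-actin of vascular smooth muscle and of myofibroblasts, averaged 14.56 ± 0.12 (SD, n = 8) in omental, 14.52 ± 0.15 in abdominal and 14.63 ± 0.07 in femoral cells. Its difference was 0.03 against abdominal cells (95% interval -0.11 to 0.17, adjusted p = 0.83) and -0.07 against femoral cells (-0.19 to 0.05, adjusted p = 0.469). The ACTA2 probe was among the 51 brightest of the array's probes on every array, at 80.2% of the highest intensity on average. Whether so bright a probe can still register a difference was not tested.

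The tested probes of TAGLN disagreed. TAGLN encodes transgelin (SM22-alpha), an actin-binding protein that is an early marker of smooth muscle differentiation. Its brighter probe averaged 14.59, 14.54 and 14.62 in omental, abdominal and femoral cells and sat at 81.0% of the highest intensity. Its differences were 0.05 ± 0.05 against abdominal (adjusted p = 0.662) and -0.03 ± 0.05 against femoral cells (adjusted p = 0.765). The dimmer tested probe, at 38.9% of the highest intensity, read 13.61 to 13.90 in omental, 12.94 to 13.70 in abdominal and 12.99 to 13.84 in femoral cells. On this probe TAGLN was higher in omental cells in 8 of 8 fetuses in both comparisons, by 0.45 ± 0.09 against abdominal (adjusted p = 0.0113) and 0.45 ± 0.09 against femoral cells (adjusted p = 0.00616). TAGLN is counted above by its brighter probe, and counting a gene by any tested probe gave 7 and 8 of 10 genes in place of 6 and 7.

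TPM1 encodes alpha-tropomyosin, which lies along the actin filament and has muscle and non-muscle isoforms. Its 4 tested probes were all higher in omental cells, by 0.52 to 0.89 against abdominal and by 0.74 to 1.17 against femoral cells. The brightest averaged 14.36 ± 0.13 in omental, 13.83 ± 0.33 in abdominal and 13.62 ± 0.27 in femoral cells (SD, n = 8). Its differences were 0.53 ± 0.09 (adjusted p = 0.00484, and 0.57 ± 0.09 without the abdominal array of restricted_9073) and 0.74 ± 0.09 (adjusted p = 9.31e-05), each in 8 of 8 fetuses. All omental arrays of that probe exceeded all femoral arrays, with 14.22 as the lowest omental and 14.19 as the highest femoral value.

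Among the myosin subunits, MYH11, the smooth muscle myosin heavy chain, had its lowest mean in abdominal cells, the same depot order as ACTG2. In omental cells it read 10.43, 10.54, 10.60 and 9.40 in control and 11.32, 9.52, 11.13 and 10.58 in restricted fetuses. Abdominal cells gave 7.73, 8.49, 8.65 and 9.20 in control and 10.50, 10.40, 9.05 and 7.29 in restricted fetuses. Femoral cells gave 9.54, 10.33, 9.97 and 10.42 in control and 10.67, 9.50, 9.38 and 8.47 in restricted fetuses. The abdominal array was the lowest of a fetus's 3 arrays in 7 of 8 fetuses, the exception being restricted_9073, and the depots overlapped. MYH11 was higher in omental than in abdominal cells by 1.53 ± 0.39 (adjusted p = 0.0339, 7 of 8 fetuses), and by 1.87 ± 0.31 (adjusted p = 0.00525) without the abdominal array of restricted_9073. The call ended without control_8009 (adjusted p = 0.0887), control_8011 (0.0823), control_9017 (0.0831), restricted_9075 (0.0786) or restricted_9085 (0.0791). Against femoral cells the difference was 0.66 ± 0.27 (adjusted p = 0.131).

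MYL9, the regulatory light chain whose phosphorylation starts contraction, ranged from 10.89 to 11.39 in omental, 10.10 to 11.03 in abdominal and 10.15 to 10.95 in femoral cells. It was higher in omental than in femoral cells by 0.55 ± 0.11 (adjusted p = 0.00395, 7 of 8 fetuses), and its dimmer probe by 0.60 ± 0.14 (adjusted p = 0.0134). Against abdominal cells the probes gave 0.47 ± 0.14 and 0.48 ± 0.14, with adjusted p of 0.0594 and 0.0587. Without the abdominal array of restricted_9073, MYL9 also passed against abdominal cells (0.54 ± 0.15, adjusted p = 0.0499), which raised the count of genes called to 7 of 10, beside 6.36% of all genes. DES encodes desmin, the intermediate filament protein of muscle cells. It averaged 10.82 ± 0.64 in omental, 10.13 ± 0.61 in abdominal and 9.73 ± 0.37 in femoral cells (SD, n = 8). DES was higher in omental than in femoral cells by 1.09 ± 0.16 (2.13-fold, adjusted p = 0.000674, 8 of 8 fetuses). Against abdominal cells the difference was 0.69 ± 0.24 (adjusted p = 0.108, 6 of 8 fetuses).

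**Figure D2:**
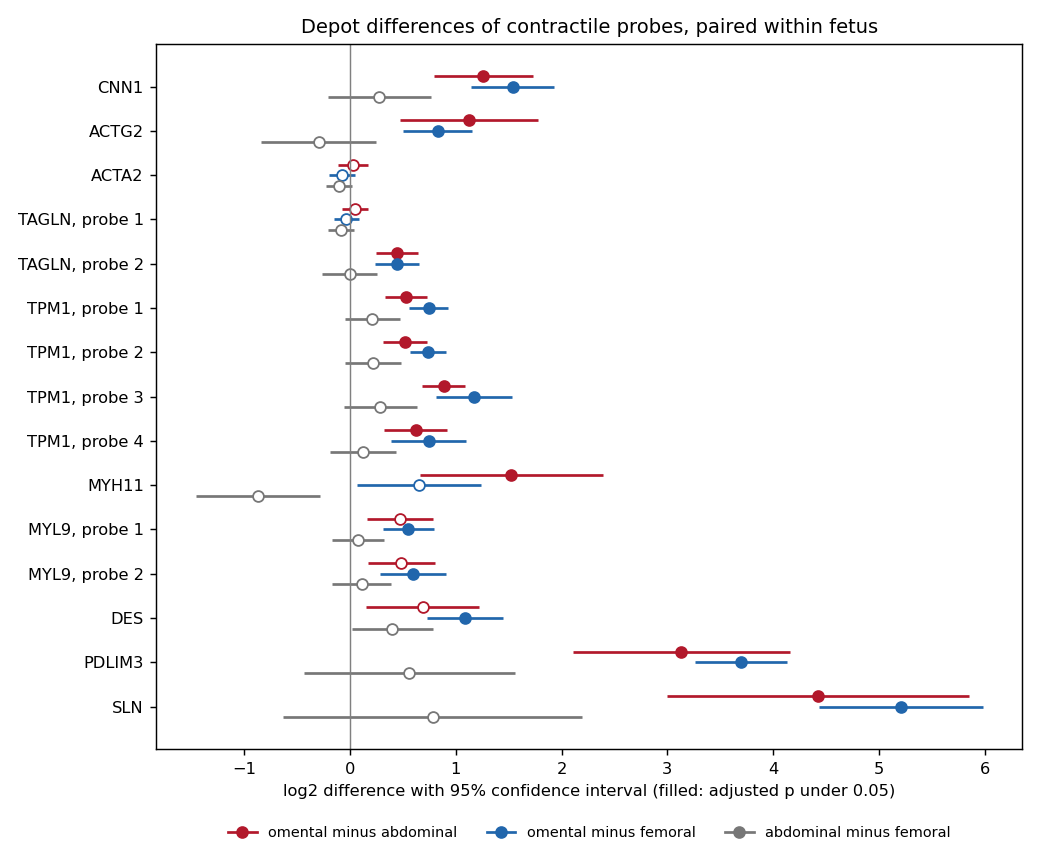
Differences between depots in log2 units (x axis) of the 15 tested contractile probes (y axis), paired within 8 fetuses, with 95% confidence intervals from limma and filled points where the adjusted p was under 0.05. Omental excesses run up to 4.42 against abdominal (red) and 5.21 against femoral cells (blue), and no difference between abdominal and femoral cells (grey) is filled.

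The subcutaneous depots were not told apart by any of these genes. Between abdominal and femoral cells 0 of 10 genes were called with limma, where 0.215% of all genes were called. By the brightest probe, 2 had an unadjusted p under 0.05, beside 1365 of all 16933 probes tested. MYH11 was 0.87 ± 0.27 lower in abdominal cells in 7 of 8 fetuses (adjusted p = 0.39), and without the abdominal array of restricted_9073 the difference was -1.12 ± 0.20 (adjusted p = 0.0974). DES differed by 0.40 ± 0.18 (adjusted p = 0.596), with a 95% interval of 0.02 to 0.79. For PDLIM3 and SLN the intervals were wide, from -0.43 to 1.56 and from -0.63 to 2.20. By mean level the order was omental, abdominal, femoral for CNN1, TPM1, MYL9, DES, PDLIM3 and SLN, and omental, femoral, abdominal for ACTG2 and MYH11. No gene passed the adjusted threshold between its lower 2 places, though the unadjusted intervals of MYH11 (-1.46 to -0.28) and DES did not include 0.

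Genes that act beside the 10 were read as a wider list of smooth muscle and actomyosin genes. Of 31 tested, 14 were higher and 0 lower in omental than in abdominal cells, and 17 were higher and 2 lower than in femoral cells, with list medians of 0.34 and 0.32. Beside these and the list counts that follow, 6.25% of all genes were higher and 5.52% lower in omental than in abdominal cells, and 9.1% were higher and 10.1% lower than in femoral cells. The clearest against femoral cells were SORBS2 (1.47 ± 0.15, adjusted p = 3.65e-05), an adaptor of focal adhesions and Z lines, and HSPB6 (1.21 ± 0.11, adjusted p = 2.14e-05), a small heat shock protein linked to smooth muscle relaxation. PPP1R14A, the inhibitor of myosin phosphatase also called CPI-17, was 0.97 ± 0.12 higher (adjusted p = 0.000195), and CSRP1, a LIM protein of the actin cytoskeleton, 0.87 ± 0.12 higher (adjusted p = 0.000327). Each was higher in 8 of 8 fetuses. The genes lower in omental than in femoral cells, named after their values were seen, were CRYAB (-1.08 ± 0.20), a small heat shock protein and chaperone of desmin, and PPP1R12B (-0.30 ± 0.09), a subunit of myosin phosphatase.

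SRF, the transcription factor at the centre of this programme, averaged 11.17 ± 0.18 in omental, 10.70 ± 0.31 in abdominal and 10.60 ± 0.29 in femoral cells (SD, n = 8). SRF was higher in omental cells by 0.47 ± 0.08 against abdominal (adjusted p = 0.00422) and 0.57 ± 0.10 against femoral cells (adjusted p = 0.00201), in 8 of 8 fetuses each. Its cofactor MRTFA, which enters the nucleus when actin polymerises, was higher by 0.39 ± 0.09 (adjusted p = 0.0191) and 0.28 ± 0.08 (adjusted p = 0.027). MYOCD, the cofactor restricted to smooth and cardiac muscle, was higher only against femoral cells among the tests run (0.35 ± 0.08, adjusted p = 0.00882, against 0.11 ± 0.08, adjusted p = 0.464, for abdominal cells), and the difference between these was not tested. MRTFB was detected on 0 arrays. Of 21 regulators tested, 5 were higher and 4 lower in omental cells in each comparison, with list medians of 0.01 and 0.02. The tested regulators included TCF21, named here only for its detection on 7 omental, 2 abdominal and 0 femoral arrays. TCF21 thus entered the tests through the omental group. NKX3-2, a homeobox factor of visceral and axial mesoderm, was the farthest apart at 5.10 ± 0.56 over abdominal cells (adjusted p = 0.000673). KLF4, a repressor of smooth muscle genes, was lower by 1.55 ± 0.15 (adjusted p = 0.000362), and PRRX1, a limb and mesenchyme homeobox factor, by 0.96 ± 0.14 (adjusted p = 0.00213). On the abdominal array of restricted_9073, NKX3-2 read 9.55, against means of 10.22 in omental and 5.12 in abdominal cells, and NKX3-2 was detected on 2 of 8 abdominal arrays. Without that array 4 regulators were higher and 4 lower than in abdominal cells, and the wider contractile list kept counts of 14 and 0.

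Of 19 TGF-beta genes tested, 2 were higher and 1 lower against abdominal cells, and 3 were higher and 4 lower against femoral cells, with list medians of 0.03 and -0.07. Without the abdominal array of restricted_9073, 1 was higher and 1 lower against abdominal cells. Against femoral cells the ligand gene TGFB3 was 0.63 ± 0.11 higher (adjusted p = 0.00179) and the inhibitory SMAD7 0.33 ± 0.06 higher (adjusted p = 0.00225). The receptor genes TGFBR3 and TGFBR2 were lower there, by 0.45 ± 0.09 (adjusted p = 0.00377) and 0.38 ± 0.10 (adjusted p = 0.0172).

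**Figure D3:**
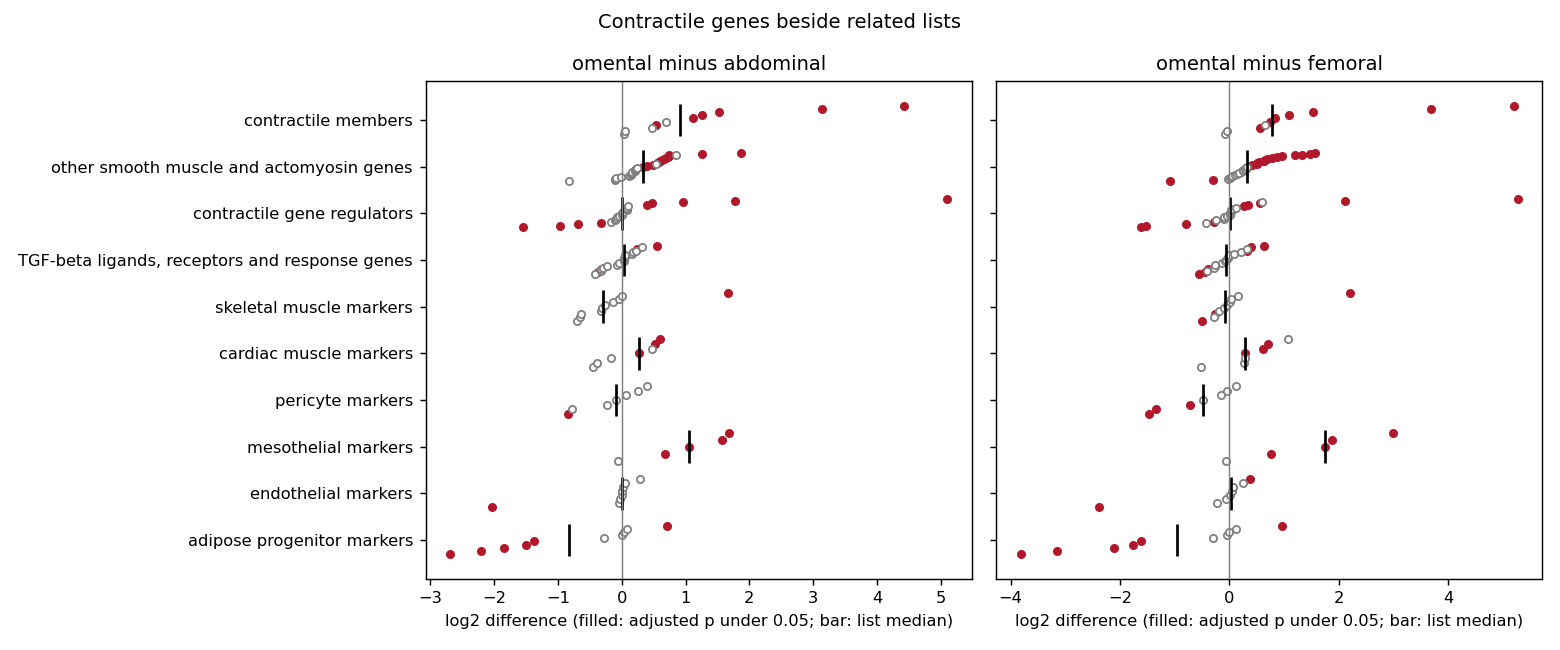
Log2 differences (x axis) of every tested gene of the 10 contractile genes and 9 related lists (y axis), omental minus abdominal on the left and omental minus femoral on the right, with filled points for an adjusted p under 0.05 and a black bar at the list median. The medians of the contractile genes are 0.91 and 0.79, and those of the other smooth muscle and actomyosin genes 0.34 and 0.32.

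Markers of other cell types moved between the depots as well, and their part in the contractile differences was not tested. Mesothelial cells line the abdominal cavity, and 4 of 5 tested markers were higher in omental than in abdominal cells and 4 of 5 than in femoral cells. Among them were WT1 (1.69 ± 0.22, adjusted p = 0.00167), CALB2 (1.57 ± 0.35, 0.0174) and KRT19 (1.06 ± 0.29, 0.0428) against abdominal cells. The other, LRRN4 (0.69 ± 0.18, 0.0351), was detected on 6 omental, 1 abdominal and 0 femoral arrays and so entered the tests through the omental group. The summed mesothelial level, the log2 of the added normalised intensities, ran from 9.19 to 10.40 on omental, 8.38 to 9.31 on abdominal and 8.22 to 8.65 on femoral arrays. The mesothelial genes MSLN, KRT8, KRT18, UPK1B, BNC1, ITLN1 and HP were detected on 0 arrays. Without the abdominal array of restricted_9073, 3 of 5 mesothelial markers were higher than in abdominal cells. Pericytes are contractile cells around small vessels that express many of the 10 genes. Of 7 pericyte markers tested, 0 were called higher and 1 lower against abdominal cells, or 2 lower without the abdominal array of restricted_9073, and 3 of the 7 differences were positive. Against femoral cells 0 were higher and 3 lower, KCNJ8 by 1.47 ± 0.18, ABCC9 by 1.35 ± 0.15 and PDGFRB by 0.72 ± 0.08. ABCC9 was detected on 2 omental, 6 abdominal and 8 femoral arrays and so entered the tests through the subcutaneous groups. The summed pericyte level was 10.38 to 10.68 on omental, 10.35 to 11.19 on abdominal and 10.97 to 11.64 on femoral arrays, and RGS5 was detected on 0 arrays.

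Striated muscle markers ranged from not detected to detected on 24 of 24 arrays, as the skeletal MYH2 and TNNT1 and the cardiac ACTC1 and TNNC1 were. MYOD1 was detected on 0 arrays and MYOG on 2, and summed skeletal levels were 9.25 to 10.33 in omental, 9.13 to 11.5 in abdominal and 9.11 to 9.46 in femoral cells. Of 10 skeletal markers tested, TNNT1, the slow skeletal troponin T, was the only one called higher in omental cells (2.21 ± 0.21 against femoral, adjusted p = 2.56e-05), and 0 were lower against abdominal cells. The 2 lower against femoral cells were TNNT3, the fast skeletal troponin T (-0.51 ± 0.13, adjusted p = 0.0156), and CHRNA1, a subunit of the muscle acetylcholine receptor (-0.26 ± 0.08, adjusted p = 0.0476). By the probe used, TNNT3 was detected on 0 omental, 4 abdominal and 5 femoral arrays, and CHRNA1 on 1, 6 and 7. Both thus entered the tests through the subcutaneous groups. Summed cardiac levels were 8.64 to 10.41 in omental, 8.42 to 11.26 in abdominal and 8.30 to 10.37 in femoral cells. Of 7 cardiac markers tested, 3 were higher and 0 lower in each comparison. Against abdominal cells these were TNNI3, cardiac troponin I (0.52 ± 0.09), NKX2-5 (0.60 ± 0.12) and MYL7 (0.28 ± 0.07). TNNI3 was detected on 8 omental, 2 abdominal and 1 femoral arrays. NKX2-5 and MYL7 were detected on 5 and 4 omental, 0 and 1 abdominal and 0 femoral arrays. All 3 entered the tests through the omental group, so a higher omental level was built in by the filter. Of 8 endothelial markers 0 were higher and 1 lower against abdominal cells, and 1 was higher and 1 lower against femoral cells. The lower was TEK, an angiopoietin receptor (-2.38 ± 0.09), and the higher was ESAM (0.37 ± 0.11), which was detected on 4 omental, 1 abdominal and 0 femoral arrays and so entered the tests through the omental group. Adipose progenitor markers were lower in omental cells on balance, with 1 of 10 higher and 5 lower in each comparison. Among them MME was lower than in abdominal cells by 2.68 ± 0.23, CD34 by 2.20 ± 0.34, CD248 by 1.84 ± 0.21 and CD44 by 1.49 ± 0.14. MME was detected on 2 omental, 8 abdominal and 8 femoral arrays and so entered the tests through the subcutaneous groups.

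Over the 24 arrays the contractile genes tracked each other to different degrees. As a description over arrays that share 8 fetuses and 3 depots, CNN1 and MYL9 had a Pearson r of 0.90 and SLN and TPM1 one of 0.88, while the closest contractile gene to MYH11, again SLN, reached 0.63. Outside the 10, the closest profile to CNN1 and to TPM1 was COL4A1, a basement membrane collagen (0.93 and 0.91). CSRP1 was the closest to MYL9 (0.93), PGM5 to ACTG2 (0.90), SHTN1 to PDLIM3 (0.93), ELMOD1 to SLN (0.98), IFNL3 to DES (0.96) and FAM50B to MYH11 (0.79). PPP1R14A stood among the 3 closest to DES (0.87).

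Maternal restriction was compared within each depot and over the mean of a fetus's 3 arrays. With limma, 0 of 10 contractile genes were called in omental cells, where 0% of all genes were called, 0 in abdominal cells (0% of all genes), 0 in femoral cells (0%) and 0 over depot means (0.00978%). No contractile gene, by its brightest probe, had an unadjusted p under 0.05 in any of these 4 comparisons. Omental ACTG2 was 0.40 lower in restricted fetuses with a 95% interval of -0.87 to 0.06, and omental CNN1 0.36 lower (-0.80 to 0.09). Over depot means, by the brightest probe, the intervals of ACTA2, TAGLN, TPM1 and MYL9 lay within -0.28 and 0.34. That of SLN ran from -0.80 to 1.98 and that of PDLIM3 from -1.38 to 0.64. The dimmest TPM1 probes gave wider intervals, from -1.11 to 0.24 and from -0.77 to 0.35, and the dimmer tested TAGLN probe -0.33 to 0.18. Whether probes as bright as those of ACTA2 and TAGLN can register a difference was not tested. A miss of the threshold with 4 fetuses a diet does not show equal levels.

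The abdominal PDLIM3 values given above turned on 1 array. With all 8 abdominal arrays restricted minus control was -1.38 ± 0.94 (adjusted p = 0.955). Without the abdominal array of restricted_9073 it was -2.47 ± 0.31, with an unadjusted p of 5.13e-05 and an adjusted p of 0.241. The diets then did not overlap, and the share of all genes for which this holds is not given here. PDLIM3 was detected on 3 of 4 abdominal arrays of restricted fetuses. The values of the restricted fetuses other than restricted_9073, 4.68 to 4.99, thus lie near background. For abdominal SLN the same step turned the difference from 0.76 ± 1.39 to -0.72 ± 0.76, with adjusted p of 0.975 and 0.909. Femoral PDLIM3 was 0.36 ± 0.37 higher in restricted fetuses (adjusted p = 0.898).

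**Figure D4:**
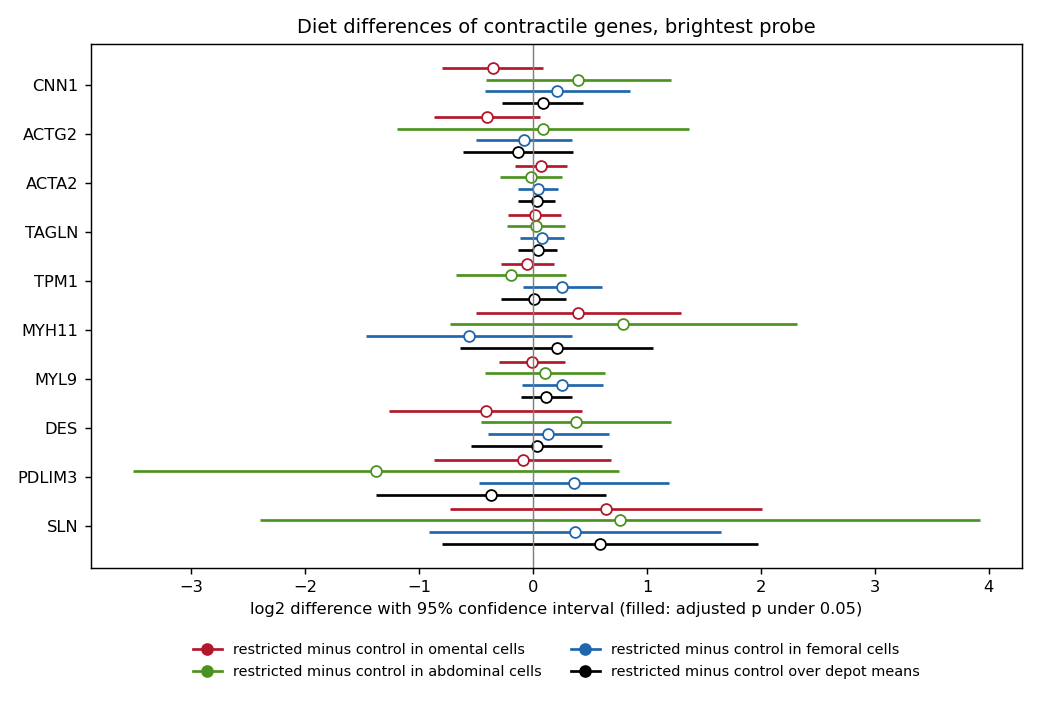
Restricted minus control differences in log2 units (x axis) of the 10 contractile genes (y axis), each by its brightest tested probe, with 95% confidence intervals from limma, in omental, abdominal and femoral cells and over the mean of each fetus's 3 depots. Every interval includes 0, and the widest are those of abdominal SLN (-2.40 to 3.92) and abdominal PDLIM3 (-3.51 to 0.76).

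Whether a depot difference itself changed with diet was tested as an interaction, the depot difference in restricted minus that in control fetuses. With limma, 0 of 10 genes were called for omental and abdominal (0% of all genes), 0 for omental and femoral (0%) and 0 for abdominal and femoral cells (0%). By the brightest probe, 0, 0 and 2 genes had an unadjusted p under 0.05, beside 583, 688 and 722 of all 16933 probes. Dimmer TPM1 probes also had one for omental and femoral (0.0433) and for abdominal and femoral cells (0.0346 and 0.018). The 2 genes by the brightest probe were MYH11 and PDLIM3. In control fetuses MYH11 was lower in abdominal than in femoral cells by a mean of 1.55 ± 0.33 (SD, n = 4), and in restricted fetuses by 0.19 ± 0.86, an interaction of 1.35 ± 0.36 (adjusted p = 0.973). It was 0.99 ± 0.26 (adjusted p = 0.724) without the abdominal array of restricted_9073. For PDLIM3 the abdominal excess over femoral cells was 1.43 ± 0.79 in control and -0.31 ± 1.84 in restricted fetuses, an interaction of -1.74 ± 0.78 (adjusted p = 0.973). Without that array it was -2.64 ± 0.39 (adjusted p = 0.425). The omental excess of PDLIM3 over abdominal cells was 2.49 ± 0.93 in control and 3.78 ± 2.08 in restricted fetuses (SD, n = 4). Its lowest value, 0.90, was that of restricted_9073. The matching interaction was 1.29 ± 0.89 with all arrays (adjusted p = 0.999). Without the abdominal array of restricted_9073 it was 2.25 ± 0.55 (adjusted p = 0.999).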

How the data were processed

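Total RNA of 24 cultures was read on single-channel Illumina bead arrays with human probes. The authors deposited, per the file headers, a mean intensity for each probe on each array with its detection p-value. The values themselves show background subtraction without normalisation between arrays, since 32.0% to 37.7% of an array's intensities lay below 0. The authors also deposited a matrix of intensities whose rank order matched these arrays, and it served as an alternative. How the arrays were scanned is not given in the sources used here. Probe names came from the GEO platform annotation, which can be old. How well human probes match baboon transcripts was not examined, and levels were compared only within a probe.

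Background correction, quantile normalisation and log2 transformation were done by limma 3.58.1 in R 4.3.3 with its neqc function and an offset of 16. Tests were two-sided (lmFit, then eBayes), and p-values of all 16933 tested probes were adjusted together by Benjamini-Hochberg. Depots were compared over 16 arrays with the fetus as a fixed block. Diet was compared over 8 arrays or over 8 fetus means. The replicate numbers pair the samples because the arrays of a number come from the same fetus. Deviations from group means correlated between arrays of the same fetus in all 24 pairs (0.280 to 0.673, median 0.457). Means are given with SD and differences with SE. Precision is limited by the number of arrays and, for dim probes, by their small margin over background. The procedure was tested on simulated data.

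The 10 genes and the related lists were chosen with earlier results of these data known. Every probe of the 10 genes was described. From each other list the text names the up to 4 called genes with the smallest p in the comparison with most calls, and MYOCD, SRF, MRTFA, MRTFB, MYOD1 and MYOG whatever their values. Profiles most like a member were the 3 highest by Pearson r. Alternatives covered background correction, normalisation, the filter on dim probes, the choice of probe, the replicate block and the omission of each fetus and of 1 array. No sequence or genome position is given, because none was used here. Python 3.11.15, numpy 2.4.6, pandas 2.3.3 and matplotlib 3.10.9 served for tables and plots.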

Additional observations from a re-analysis of the deposited data

Results flagged for a closer look

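In each group of 4 arrays the farthest array was compared with the others by Dixon's ratio of its gap to the range, at the 95% critical value. Of 90 groups of contractile probes, 5 held an array beyond it, and chance gives about 1 in 20 such groups. PDLIM3 in abdominal cells read 9.22 in restricted_9073, with the next restricted fetus at 4.99. The dimmest TPM1 probe was also highest on that array, at 5.62 against 4.78 for the next. PDLIM3 in abdominal cells of control fetuses was highest in control_9087, at 8.26 against 7.12. MYH11 in omental cells was lowest in control_9087, at 9.40 against 10.43 for the nearest. The dimmer MYL9 probe in femoral cells was lowest in restricted_9085, at 9.92 against 10.61.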

How the results depend on the processing

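Counts of contractile genes were recomputed under alternatives, 173 counts over the 10 comparisons, and all stayed within 1.5 times the reported count. Against abdominal cells the 6 genes became 4 with the deposited matrix or without the filter on dim probes, 5 when a probe had to be detected on all arrays, 8 with the 24 arrays in 1 fit and 4 to 7 when a fetus was left out. Against femoral cells the 7 became 5 under that stricter filter and 7 to 8 when a fetus was left out. The stricter filter left SLN and PDLIM3, detected on 21 and 23 arrays, out of the tests in both comparisons. With no replicate block, 5 and 7 genes were called, so the paired design changed only the call of ACTG2 against abdominal cells. Over the whole table the unpaired fit called 782 in place of 1629 probes against abdominal cells and 13 in place of 30 between the subcutaneous depots, and without the filter on dim probes 1004 were called against abdominal cells. Of 223 recomputed differences of called genes, 207 kept their direction and their call, 16 lost the call and 0 reversed. The 16 concerned ACTG2 (range 0.90 to 1.34) and MYH11 (1.27 to 1.87) against abdominal cells, including the deposited matrix (adjusted p = 0.0639 and 0.0607) and no filter (0.134 and 0.127), and the cause was not tested. Dim signal limits SLN and PDLIM3 in subcutaneous cells, where some arrays are at background.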
